A study of Mus musculus with 8 samples.

Results

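The miR-99b, let-7e and miR-125a cluster is a group of 3 microRNA (miRNA) hairpins that lie side by side on mouse chromosome 17. Both arms of each hairpin were taken by name, which gave 6 mature miRNAs of the 1907 listed in each library. They were followed in wild-type (Wt) mouse macrophages grown from bone marrow for 6 days in L929 supernatant, a conditioned medium used as a source of M-CSF, with animal ages of 8 to 12 weeks in the labels. Group 1 was 3 libraries of cells given 100 ng/ml LPS, the outer-membrane lipid of Gram-negative bacteria that activates Toll-like receptor 4, for 3 h. Group 2 was 3 libraries of unstimulated control cells. Whether separate animals or cultures stand behind the libraries of a group is not stated in the labels, so the spread that p-values rest on may be technical. The other 2 samples of the series, from a chromosome conformation assay, were not analysed here.

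A miRNA hairpin is cut out of a longer transcript by Drosha and then trimmed by Dicer to a duplex of its 5p and 3p arms. Usually an Argonaute protein keeps mainly one arm, and the partner is degraded. Targets are recognised mainly through the seed, bases 2 to 8 of the mature miRNA. The 3 hairpins belong to different seed families: miR-99b to the miR-99/miR-100 family, known for repressing the kinase mTOR, let-7e to the let-7 family, known for repressing Hmga2 and Ras genes, and miR-125a to the miR-125 family. In mouse macrophages let-7e has been described as a repressor of Tlr4, and human miR-125a of the NF-kappaB inhibitor TNFAIP3.

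Sequences and positions are from RefSeq on GRCm38.p6, plus strand of chromosome 17. The cluster covers 692 bases, from 17830188 to 17830879, inside the span of the protein-coding gene Spaca6 (17826085 to 17843010). The table gives spans only, so whether the hairpins lie in an exon or an intron is not stated. The miR-99b hairpin ends 94 bases before the let-7e hairpin, and a further 367 bases separate let-7e from miR-125a. The 6 mature sequences are shown because every value below belongs to one of them, with the seed in capitals. The prefix mmu stands for mouse and is left out from here on.
mmu-miR-99b-5p (chr17:17830194-17830215): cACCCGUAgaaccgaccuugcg
mmu-miR-99b-3p (chr17:17830232-17830253): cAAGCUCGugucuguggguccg
mmu-let-7e-5p (chr17:17830366-17830387): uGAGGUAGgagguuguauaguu
mmu-let-7e-3p (chr17:17830411-17830432): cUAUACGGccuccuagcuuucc
mmu-miR-125a-5p (chr17:17830817-17830840): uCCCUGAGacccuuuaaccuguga
mmu-miR-125a-3p (chr17:17830855-17830876): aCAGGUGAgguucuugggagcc
The let-7e and miR-125a hairpins follow, whose arm ratios moved most within the cluster. The sequence of the miR-99b hairpin was not among the RefSeq sequences used. Capitals mark the mature 5p and 3p arms, and 23 bases separate the arms in let-7e and 14 in miR-125a.
let-7e hairpin (chr17:17830352-17830444): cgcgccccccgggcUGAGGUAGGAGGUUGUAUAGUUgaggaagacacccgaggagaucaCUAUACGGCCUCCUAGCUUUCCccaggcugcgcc
miR-125a hairpin (chr17:17830812-17830879): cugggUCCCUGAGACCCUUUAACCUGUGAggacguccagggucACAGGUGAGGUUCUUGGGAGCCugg

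Library totals were 3280688 to 4105395 counts under LPS and 3912296 to 4312555 in controls. Both arms of miR-155, a miRNA induced through Toll-like receptors, were higher in the LPS libraries (miR-155-3p by 6.85 and miR-155-5p by 2.75 on the log2 scale). Of 6 myeloid marker miRNAs 5 had counts, summing to 496005 to 564257 CPM under LPS and 488872 to 545953 CPM in controls, and none passed the test. The other, miR-142a-3p, was at 0 in every library, while its partner arm miR-142a-5p averaged 57077 CPM under LPS and 56268 CPM in controls. Whether that 0 is absence from the cells or comes from the counting was not tested. The lymphocyte list (2 of 2 with counts) summed to 63.7 to 77.6 CPM under LPS and 56.3 to 71.3 CPM in controls, and the endothelial and progenitor list (3 of 4 with counts) to 18.1 to 31.3 and 20.9 to 27.6 CPM. Erythroid markers (2 of 4 with counts) were near 0, at 0.490 to 1.58 CPM under LPS and 0 to 0.485 CPM in controls, which is 0 to 5 counts per library. Stromal markers (3 of 5 with counts) were also near 0, at 1.27 to 2.21 CPM under LPS and 0.237 to 2.18 CPM in controls. At 0 throughout were miR-144-3p, miR-486a-5p, miR-145a-5p, miR-199a-5p and miR-126a-5p.

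The first comparison asked whether LPS changed the level of each arm. All 3 of the 3p arms rose within 3 h, miR-125a-3p 4.73-fold, let-7e-3p 3.71-fold and miR-99b-3p 1.50-fold. None of the 3 abundant 5p arms passed the test, with fold changes of 1.05 to 1.18. In bulk libraries, more cells that hold a miRNA and more of it per cell cannot be told apart. Levels are CPM, counts relative to the library total and scaled between libraries with TMM factors. Changes were tested on the counts with edgeR's quasi-likelihood test over the 357 miRNAs with enough counts, and an adjusted p below 0.05 was called. All 6 arms passed that filter, and their lowest count in any library was 48. Of the 357 miRNAs 3.64% rose, against 3 of the 6 cluster arms. With any 1 of the 6 libraries left out, 2 of the 6 arms were called, and miR-99b-3p was the arm lost. The median log2 fold change was 0.41 for the 6 arms and 0.01 for all 357. In either direction 5.04% of the 357 changed, 18 in number, and 11 changed without LPS replicate 3.

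miR-125a-3p, the passenger arm of miR-125a, was at 127, 131 and 92.6 CPM in the LPS libraries, against 25.9, 19.2 and 28.9 CPM in the control libraries. The lowest LPS library stood well above the highest control. Of the 357 miRNAs 8.68% had all LPS libraries above all controls, by any margin. Its log2 fold change was 2.24 (SE 0.20, edgeR adjusted p = 8.41e-05). The counts behind it were 365 to 534 under LPS and 79 to 119 in controls.

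let-7e-3p, the passenger arm of let-7e, was at 45.3, 64.7 and 54.3 CPM under LPS and at 11.4, 18.4 and 14.6 CPM in controls. Again the groups did not overlap. The log2 fold change was 1.89 (SE 0.22, edgeR adjusted p = 0.000391), from 143 to 264 counts under LPS and 48 to 76 in controls.

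miR-99b-3p was at 143, 152 and 182 CPM under LPS and at 116, 94.2 and 108 CPM in controls. All LPS libraries were above all controls, but the gap between the groups was narrow next to those of the other 3p arms. The log2 fold change was 0.58 (SE 0.14, edgeR adjusted p = 0.0415). This call ended without any 1 of the 6 libraries (adjusted p from 0.0529 to 0.134), with upper-quartile factors (0.109), with library totals (0.069) and with the replicate number as a block (0.0723). Over its alternatives with all libraries the adjusted p ran from 0.0111 to 0.109.

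miR-99b-5p, the cluster's most abundant product, was at 13348, 15306 and 14325 CPM under LPS and at 13738, 14421 and 12794 CPM in controls. The groups overlapped, and the log2 fold change was 0.07 (95% interval -0.15 to 0.29). miR-125a-5p was at 7266, 5440.2 and 5618 CPM under LPS and at 4114, 5089 and 6267 CPM in controls, with a log2 fold change of 0.24 (95% interval -0.12 to 0.61). The highest control exceeded the lowest LPS libraries. let-7e-5p was at 987, 893 and 813 CPM under LPS and at 849.9, 748 and 795 CPM in controls, with a log2 fold change of 0.17 (95% interval -0.09 to 0.43). LPS replicate 3 lay within the control range. The edgeR adjusted p-values of these 5p arms were 0.943, 0.759 and 0.763, and none had an unadjusted p below 0.05. DESeq2 and limma-voom called none of the 5p arms either. Of these intervals only that of miR-125a-5p reaches the log2 fold change of 0.58 seen for miR-99b-3p.

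**Figure D1:**
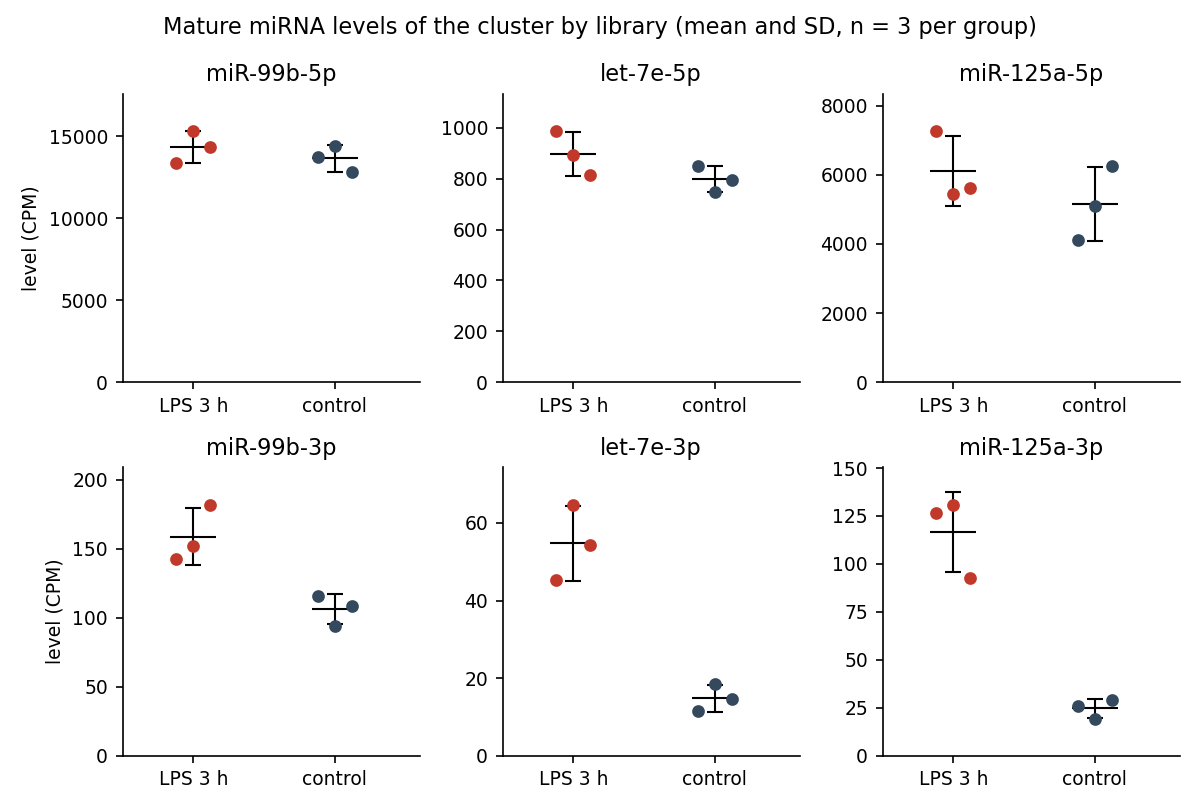
Level of each mature miRNA of the cluster in CPM (y axis, from 0) in the 3 LPS libraries (red) and the 3 control libraries (dark blue), with the mean and SD in black. The groups overlap in the 5p arms of the upper row and stand apart in the 3p arms of the lower row, where miR-125a-3p averaged 117 CPM under LPS and 24.6 CPM in controls.

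In the order of levels, miR-99b-5p came first (14326 ± 979 CPM under LPS, 13651 ± 817 CPM in controls, SD, n = 3 each), then miR-125a-5p (6108 ± 1007 and 5156 ± 1078 CPM) and let-7e-5p (897 ± 87.0 and 798 ± 51.0 CPM). The 3p arms kept the same order of hairpins at lower levels. miR-99b-3p had 159 ± 20.5 CPM under LPS and 106 ± 11.0 CPM in controls, miR-125a-3p 117 ± 21.0 and 24.6 ± 4.96 CPM, and let-7e-3p 54.8 ± 9.73 and 14.8 ± 3.53 CPM. This order held in each of the 6 libraries. Under LPS the closest neighbours were miR-99b-3p and miR-125a-3p, whose lowest and highest libraries were 143 and 131 CPM. In controls they were miR-125a-3p and let-7e-3p, at 79 and 76 counts in control replicate 2. The mature forms have 22 to 24 bases, and ligation efficiency in small RNA libraries differs between sequences, so levels of different miRNAs are those of the libraries.

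Among the 357 miRNAs, miR-125a-3p ranked 125 by mean level under LPS and 204 in controls, let-7e-3p 166 and 235, and miR-99b-3p 107 and 134. The 5p arms ranked 13 (miR-99b-5p), 22 (miR-125a-5p) and 57 (let-7e-5p) under LPS and 13, 24 and 61 in controls. In CPM, the mean gain of miR-125a-3p was 92.1, of miR-99b-3p 52.7 and of let-7e-3p 40.0. The cluster as a whole took 2.13% ± 0.112 of all counts under LPS and 2.02% ± 0.157 in controls (SD, n = 3 each), and the groups overlapped (exact permutation test, two-sided, p = 0.5). That test cannot give a p under 0.1 with these group sizes.

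The next comparison asked whether the arms of a hairpin moved apart. In let-7e and miR-125a the 3p arm gained on the 5p arm. miR-125a-3p made up 1.71%, 2.35% and 1.62% of the miR-125a counts in the LPS libraries, against 0.625%, 0.375% and 0.458% in the controls. let-7e-3p made up 4.39%, 6.76% and 6.26% of the let-7e counts under LPS and 1.32%, 2.41% and 1.80% in controls. For miR-99b the 3p share was 1.06%, 0.982% and 1.25% under LPS and 0.836%, 0.649% and 0.840% in controls. In all 3 hairpins every LPS library was above every control library, as it was for the less abundant arm in 13% of the 100 hairpins tested below, and the 3p arm stayed the minor arm throughout (exact permutation test, two-sided, p = 0.1 for each hairpin, the smallest possible). Over the whole cluster the 3p arms held 1.53% ± 0.0779 of counts under LPS and 0.739% ± 0.0846 in controls (SD, n = 3 each).

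Within each library, log2 CPM of the abundant arm was subtracted from that of the less abundant arm, and limma was fitted to all 100 hairpins with both arms past the filter. At an adjusted p below 0.05 the less abundant arm gained in 9% of these hairpins, and in 2 of the 3 cluster hairpins. The change of this difference was 1.97 on the log2 scale for miR-125a (SE 0.22, limma adjusted p = 7.99e-06) and 1.70 for let-7e (SE 0.25, limma adjusted p = 8.96e-05). Ordered from the largest gain of the less abundant arm to the largest loss, they ranked 3 and 4 of the 100 hairpins. For miR-99b it was 0.51 (95% interval 0.11 to 0.90), which did not pass (limma adjusted p = 0.105). The median over all 100 hairpins was 0.03.

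**Figure D2:**
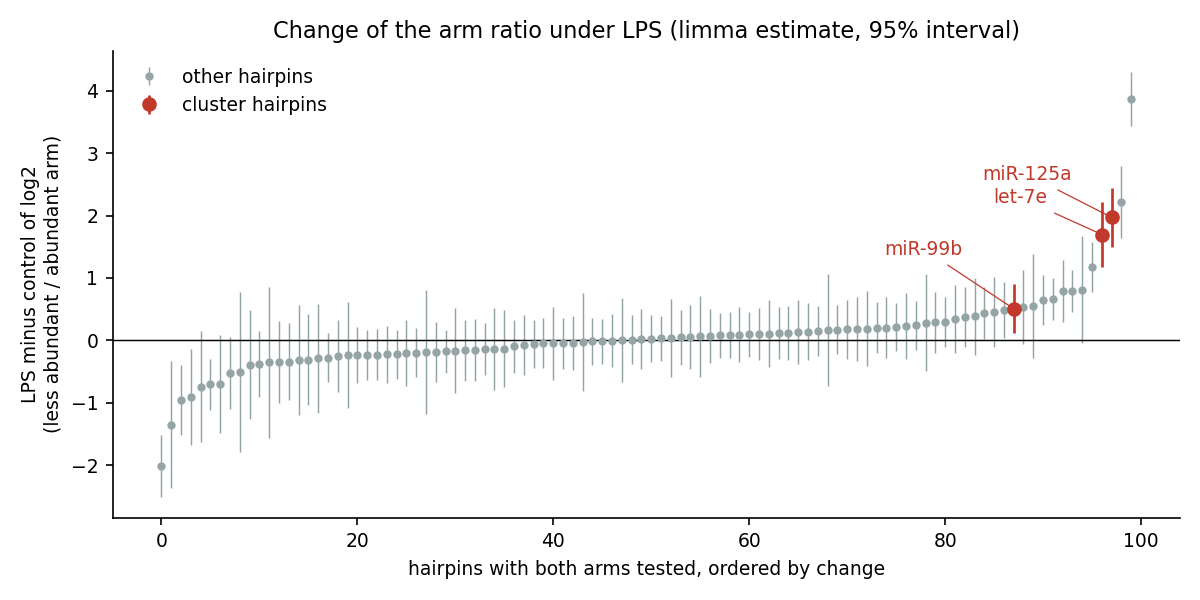
Change under LPS of the log2 ratio of the less abundant to the abundant arm (y axis, limma estimate with 95% interval) for 100 hairpins ordered by this change (x axis), with the 3 cluster hairpins in red and the others in grey. miR-125a (1.97) and let-7e (1.70) lie near the upper end, and miR-99b (0.51) lies lower with an interval that does not reach 0.

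The third comparison asked whether the proportions between the 3 neighbours changed. Among the 3p arms they did: miR-99b-3p held 45.4%, 43.7% and 55.3% of the cluster's 3p counts in the LPS libraries, against 75.7%, 71.5% and 71.4% in the controls. The share of miR-125a-3p was 40.2%, 37.7% and 28.2% under LPS and 16.9%, 14.5% and 19.0% in controls. The share of let-7e-3p was 14.4%, 18.6% and 16.5% under LPS and 7.44%, 14.0% and 9.58% in controls. None of these shares overlapped between the groups (two-sided exact permutation p = 0.1 for each, the smallest possible). For let-7e-3p the margin was narrow, with 14.4% in the lowest LPS library and 14.0% in the highest control. The 3 shares of a library add up to the whole, so they are not separate results. How often such shares stand apart in other clusters was not counted. LPS replicate 3 was the LPS library closest to the controls for miR-99b-3p and miR-125a-3p.

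Among the 5p arms the make-up overlapped. miR-99b-5p held 67.2% ± 4.74 of the 5p counts under LPS and 69.7% ± 4.69 in controls, miR-125a-5p 28.6% ± 4.46 and 26.2% ± 4.88, and let-7e-5p 4.20% ± 0.333 and 4.08% ± 0.431 (SD, n = 3 each; two-sided exact permutation p = 0.5, 0.5 and 0.7).

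**Figure D3:**
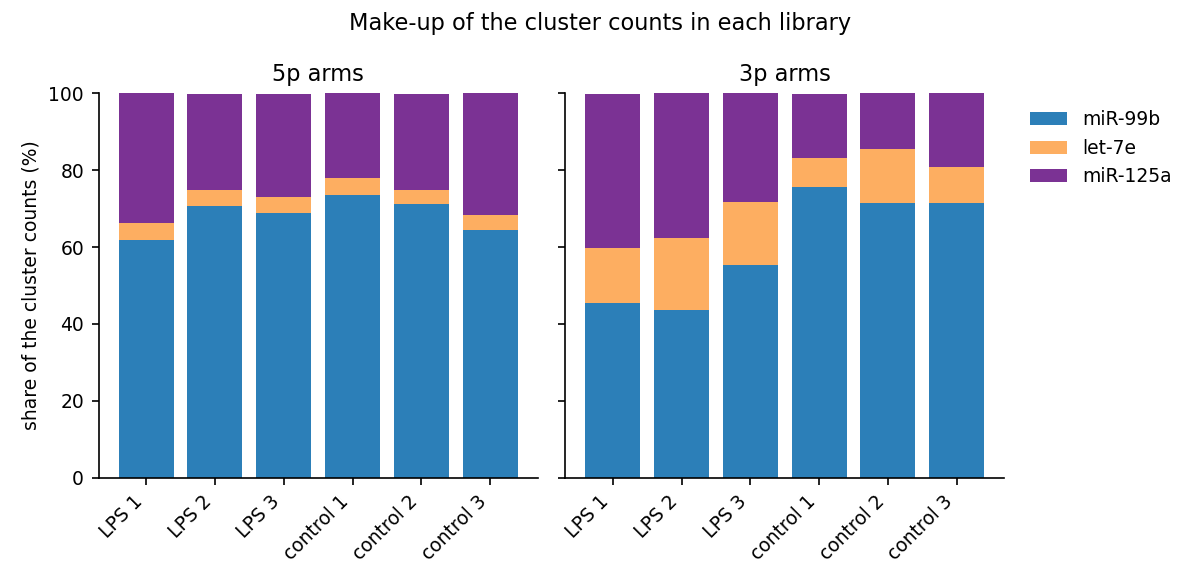
Share of each hairpin in the cluster's 5p counts (left) and 3p counts (right) in percent, stacked, for the 3 LPS and then the 3 control libraries. In the 5p bars miR-99b takes 61.8% to 70.7% under LPS and 64.4% to 73.5% in controls, and in the 3p bars it takes 43.7% to 55.3% under LPS and 71.4% to 75.7% in controls.

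These proportions were tested with limma on the within-library log2 ratio of neighbours, fitted to all 97 same-arm pairs of hairpins within 10 kb of each other. Pairs from one cluster share arms and are not independent. Of the 97 pairs 9.28% passed at an adjusted p below 0.05. So did 2 of the 6 pairs within the cluster, both of them 3p pairs that include miR-99b-3p. The ratio of miR-125a-3p to miR-99b-3p was -0.17, -0.21 and -0.97 on the log2 scale in the LPS libraries, against -2.14, -2.27 and -1.89 in the controls. Its change of 1.65 (SE 0.22, limma adjusted p = 6.18e-07) was the largest in absolute size of the 97. The ratio of let-7e-3p to miR-99b-3p was -1.65, -1.22 and -1.73 under LPS and -3.29, -2.32 and -2.85 in controls, a change of 1.29 (SE 0.23, limma adjusted p = 0.000174). Thus the rise of miR-99b-3p was smaller than that of either neighbouring 3p arm by a test of the difference itself.

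The ratio of miR-125a-3p to let-7e-3p changed by 0.36 (95% interval -0.14 to 0.86, limma adjusted p = 0.72), and its libraries overlapped between the groups. Of all 97 pairs 16.5% did not overlap. The 5p pairs had changes of 0.10 for let-7e-5p to miR-99b-5p (95% interval -0.22 to 0.42), 0.18 for miR-125a-5p to miR-99b-5p (-0.13 to 0.50) and 0.09 for miR-125a-5p to let-7e-5p (-0.25 to 0.43), all on the log2 scale. Their limma adjusted p-values were 0.918, 0.779 and 0.918. Over all 97 pairs the count of changes was 9, and it was 3 without control replicate 1 or 3 and 2 without LPS replicate 3. Both called pairs of the cluster kept an adjusted p of 0.0162 or less without any 1 library.

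**Figure D4:**
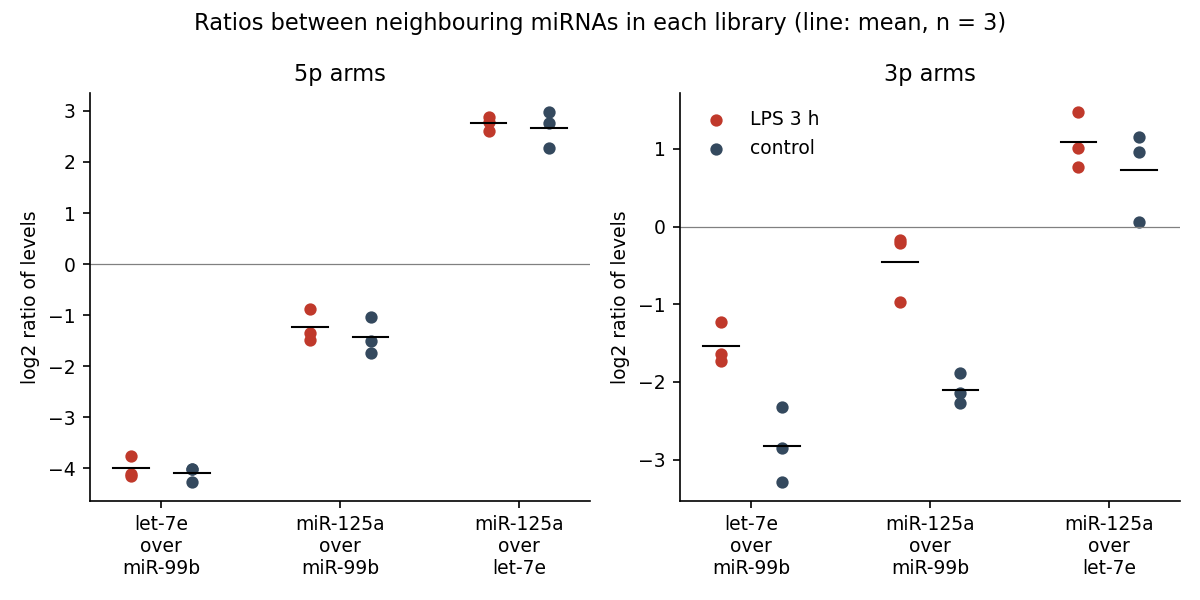
Log2 ratio of the levels of neighbouring miRNAs (y axis) for the 3 pairs of 5p arms (left) and 3p arms (right), in the 3 LPS (red) and 3 control (dark blue) libraries with group means as lines. In the 3p panel the ratios to miR-99b stand higher under LPS, at -0.17 to -0.97 for miR-125a against -1.89 to -2.27 in controls.

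The seeds of the 5p arms are shared with miRNAs from other loci, so the cluster is not the only source of these seeds. The closest relatives are shown to make the likeness visible, again with the seed in capitals. miR-99a lies on chromosome 16, and the let-7a and miR-125b copies shown are on chromosomes 13 and 9.
miR-99a-5p (chr16:77598940-77598961): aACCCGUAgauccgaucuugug
miR-99a-3p (chr16:77598977-77598997): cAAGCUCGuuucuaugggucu
let-7a-5p (chr13:48538239-48538260, minus strand): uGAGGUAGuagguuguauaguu
miR-125b-5p (chr9:41581940-41581961): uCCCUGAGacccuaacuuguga
Counted from the 5′ end with the cluster arm's base first, miR-99b-5p and miR-99a-5p differ by C1A, A11U, C16U and C21U. let-7e-5p differs from let-7a-5p by G9U alone, and G9U is found in each of the 8 let-7 and miR-98 5p arms compared, let-7a-5p among them, which have 1 to 5 differences in all. let-7k, a listed miRNA of 19 bases with the let-7 seed, was not among the 8; it has the same base as let-7e-5p at position 9, and had 0 or 1 counts per library. No other listed miRNA in the RefSeq table has the seed of let-7e-3p or of miR-125a-3p.

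By counts, miR-99b-5p supplied 81.9%, 83.6% and 84.5% of its seed family (miR-99a-5p, miR-99b-5p and miR-100-5p) under LPS and 80.4%, 81.5% and 81.9% in controls, groups that only just stand apart. let-7e-5p supplied 3.15%, 3.13% and 2.76% of the counts with the let-7 seed under LPS and 2.54%, 2.64% and 2.61% in controls. miR-125a-5p supplied 77.5%, 68.4% and 77.0% of its seed family under LPS and 66.4%, 66.1% and 75.4% in controls, which overlap. The 2 other members of that family with counts were miR-125b-5p and miR-351-5p. Without miR-125b-5p the mean share of miR-125a-5p was 74.8% under LPS and 69.9% in controls, against 74.3% and 69.3% with it. Most of the remaining counts of this family were therefore those of miR-351-5p. For the seed shared by miR-99b-3p and miR-99a-3p, the cluster's arm held 57.4%, 55.0% and 58.5% under LPS and 52.1%, 44.7% and 49.7% in controls. The two-sided exact permutation p was 0.1 for miR-99b-5p, let-7e-5p and miR-99b-3p, the smallest possible, and 0.2 for miR-125a-5p. How often shares stand apart in other seed families was not counted. Neither miR-99b-5p nor let-7e-5p passed the edgeR test of its own level. Arms with several hairpins in RefSeq, such as miR-125b-5p and let-7a-5p, may be undercounted: miR-125b-5p had 202 to 223 counts under LPS and 229 to 274 in controls, while miR-125b-2-3p from one of its hairpins had 2710 to 3415 and 3287 to 3578. Shares of the let-7 and miR-125 families therefore describe the deposited counts. How reads with several positions were counted is not given in the sources used here.

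Relatives from other loci were counted as a list of 28 arms of miR-99a, miR-100, miR-125b, miR-98 and the other let-7 genes, of which 23 had enough counts. The list was set by name and leaves out miR-351-5p, which shares the seed of miR-125a-5p. None of the 23 rose or fell by edgeR, where 5.04% of all 357 did. Of the 23, 2 had an unadjusted p below 0.05, as 42 of all 357 did. These counts are near the background and show nothing particular to the relatives. Their log2 fold changes ran from -0.41 (let-7b-3p) to 0.97 (miR-125b-1-3p, edgeR adjusted p = 0.224), with a median of -0.03. let-7i-3p, a passenger arm like let-7e-3p, had a log2 fold change of 0.81 (SE 0.21, edgeR adjusted p = 0.0515). miR-99a-5p and miR-99a-3p had log2 fold changes of -0.14 and 0.11. The arm difference changed by 0.24 in miR-99a (limma adjusted p = 0.656), against 0.51 in miR-99b. Among let-7 relatives the arm difference changed by 0.79 in let-7i (SE 0.23, limma adjusted p = 0.0315), 0.30 in let-7d, 0.20 in let-7g, -0.02 in miR-98 and -0.18 in let-7b, and 1 of these 5 passed the threshold, let-7i, where 9% of the 100 hairpins passed with a gain of the less abundant arm. Whether the cluster hairpins differ from these relatives in their change was not tested.

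**Figure D5:**
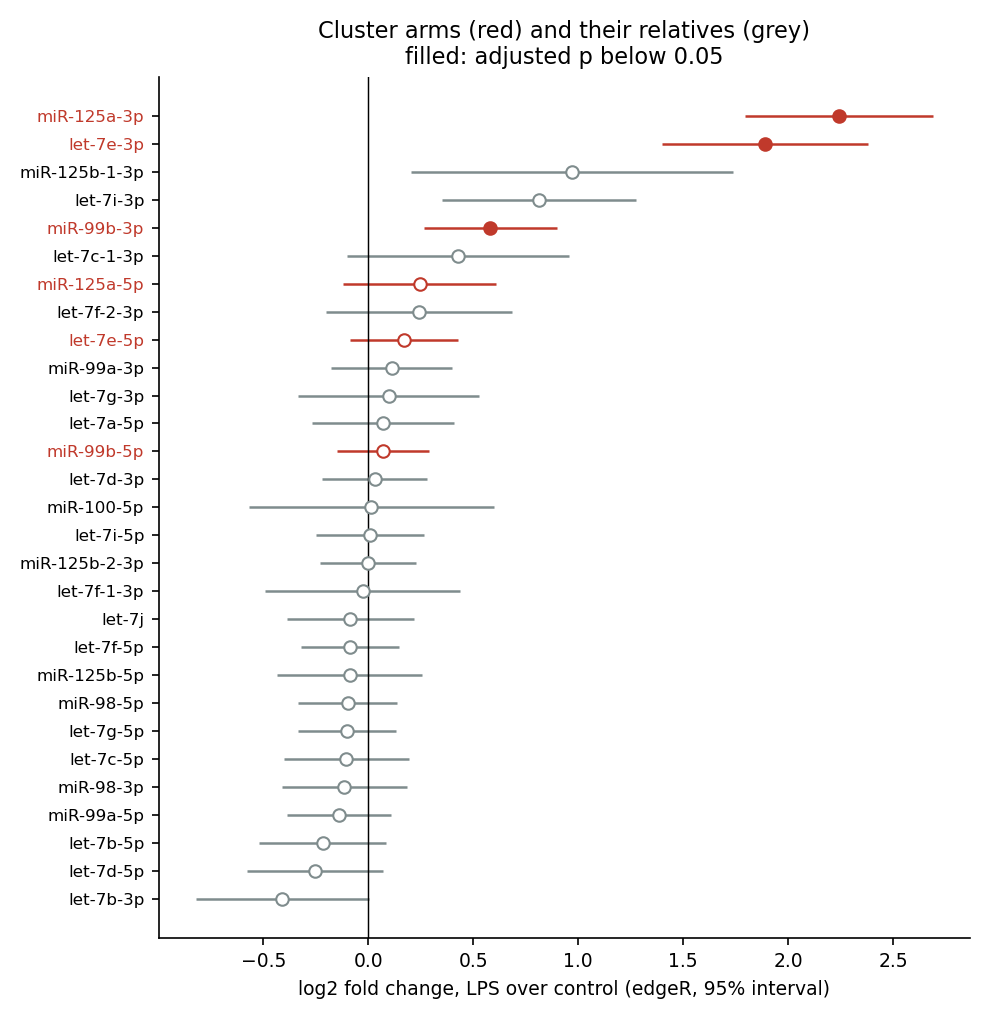
Log2 fold change, LPS over control, with its 95% interval (x axis) for the 6 cluster arms (red) and 23 relatives from other loci (grey), ordered by size, with filled points for an edgeR adjusted p below 0.05. miR-125a-3p (2.24) and let-7e-3p (1.89) lead, miR-99b-3p (0.58) is the other filled point, and the relatives run from -0.41 to 0.97.

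The miRNAs whose levels ran most like those of the cluster were found by Pearson correlation of log2 CPM over the 6 libraries, among 351 miRNAs outside the cluster. These 6 points fall into 2 groups, so the values mostly carry the difference between LPS and control. Closest to the mean of the 3p arms were miR-155-3p (r = 0.992), miR-455-5p (0.992), miR-330-3p (0.979), miR-221-5p (0.969) and miR-1934-5p (0.968). Of these 5, miR-155-3p, miR-455-5p and miR-221-5p passed the edgeR test and rose. Closest to the mean of the 5p arms were miR-221-5p (r = 0.928), miR-3109-3p (0.913), miR-146a-3p (0.906), miR-210-5p (0.903) and miR-222-3p (0.892). Of these 5, all but miR-3109-3p passed the edgeR test and rose, while the 5p arms themselves did not pass. Of all 357 miRNAs 3.64% rose. Choosing by correlation over the same 6 libraries favours miRNAs that rose, so the calls in either set of 5 are no separate result.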

How the data were processed

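Small RNA libraries were sequenced from LPS-treated and control macrophages, and the authors deposited raw counts of mature miRNAs in whole numbers, with no header. Kits and treatment are per the labels' protocols: total RNA by Tri Reagent and the TruSeq Small RNA kit. Novoalign, SAMtools 0.1.19 and the build GRCm38.p1 (mm10) are per the submitters' processing notes; not given in the sources used here are the counting tool, the annotation release, strand use and how reads with several positions were handled. Of 1907 names, 1896 matched a RefSeq hairpin (GRCm38.p6) and 78 matched several.

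Counts were tested with edgeR 4.0.16 in R 4.3.3 (TMM, filterByExpr with a minimum count of 10, quasi-likelihood F test, Benjamini-Hochberg over 357 miRNAs). Arm and neighbour differences used log2 CPM with a prior count of 2 and limma 3.58.1 with a variance trend on the lower member. The SE of an edgeR log2 fold change was its size divided by the square root of F. The edgeR test, the arm fit and the pair fit were tried on simulated counts with known changes, and the other steps were not. A chi-square test separated each pair of libraries within a group (statistic over degrees of freedom at least 62.3), so none was a repeat deposit within counting noise. Alternatives were other scalings, filters and prior counts, DESeq2 1.42.0, limma-voom, a replicate block and leaving out each library.

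The named miRNAs are the 6 members, seed relatives and the 5 nearest in pattern to each set of arms. Members and lists were chosen with earlier results of these data known. Intervals cover the spread between libraries only, and no molecular identifiers were available.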

Additional observations from a re-analysis of the deposited data

How the results depend on the processing

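The calls of miR-125a-3p and let-7e-3p, the arm differences of miR-125a and let-7e and both called 3p pairs were kept under all alternatives and without any 1 library. The call of miR-99b-3p (log2 fold change 0.58) was lost with upper-quartile factors (0.52), library totals (0.53), a replicate block (0.58) and without any 1 library (0.51 to 0.63); the cause was not tested. Without 1 library the log2 fold change of let-7e-3p was 1.69 to 2.09 and that of miR-125a-3p 2.11 to 2.43. No 5p arm was called under any alternative. Upper-quartile factors moved the median of all miRNAs to -0.05, and the 3p median was then 1.84.

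Counts of calls moved more. Called miRNAs numbered 11 to 18 without 1 library. Hairpins with an arm difference in either direction numbered 12 in the main fit and 7 without the variance trend, and same-arm pairs 9 and 5. Pairs numbered 3 with a minimum count of 50, a filter that also leaves fewer pairs to test, and 2 to 10 without 1 library. Small uncalled 5p pair changes turned negative: miR-125a-5p to let-7e-5p ranged from -0.11 (without control replicate 1) to 0.24, and let-7e-5p to miR-99b-5p from -0.023 (without LPS replicate 1) to 0.17.

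Replicate numbers were not taken as pairs. The labels do not tie them to animals, although the names of the deposited files number both groups alike, which may mark shared animals. Deviations of same-numbered libraries correlated at 0.02, 0.14 and -0.04, and not every library correlated best with its own number. With a replicate block 17 miRNAs were called, against 18 without it. The block removed the call of miR-99b-3p and changed no other call of the cluster. The uncalled values moved more without 1 library: 0.06 to 0.44 for miR-125a-5p (0.24 with all), 0.06 to 0.28 for let-7e-5p (0.17), 0.03 to 0.12 for miR-99b-5p (0.07) and 0.03 to 0.57 for the ratio of miR-125a-3p to let-7e-3p (0.36). Depth limits let-7e-3p most, with 48 to 76 counts in controls.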
